A study of Mus musculus with 6 samples.

Results

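Of 44 antiviral effector and nucleic acid sensor genes listed by name, 40 had a value of their own among the 19926 genes measured in primary mouse astrocytes, and these 40 are described here. They were picked by their known antiviral function, as genes that interferon is known to induce, and with earlier results of these data known. Their counts are therefore descriptions, set beside those of all genes. Each gene was read from the probe set with exactly 1 gene symbol and the highest mean over all arrays. Isg15, Ifi204, Sp110 and Ifi44 had no such probe set in the table used and were not analysed here. Astrocytes are glia that feed and regulate neurons. The cultures came from mice of the C57BL/6J strain, and the labels name no other allele. One group received tumour necrosis factor (TNF) at 50 ng/mL and was collected after 24 h, and the control group was collected at the same time; the labels do not say what the control cultures received. RNA of each sample was hybridised to 1 Affymetrix Mouse Gene 1.0 ST array, with 3 TNF arrays and 3 control arrays, numbered 1 to 3 in each group. Values are log2 signals, so a difference of 1 is a doubling, and each difference is TNF minus control. A gene was called higher or lower when its limma p, adjusted by Benjamini-Hochberg over all 19926 genes, was under 0.05; 7.2% of all genes were called in either direction.

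Interferons are secreted proteins that warn cells of viral infection. They bind paired receptors, JAK kinases phosphorylate STAT factors, and a complex that holds STAT2 and IRF9 binds a DNA element called the interferon-stimulated response element (ISRE) beside antiviral genes. Some of these genes encode sensors of viral RNA or DNA, others block virus entry, translation or budding, and others limit the response. Several are also known to be bound directly by interferon regulatory factors such as IRF1, IRF3 and IRF7. Astrocytes are known to use this programme in viral encephalitis.

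RefSeq promoter windows (build GRCm38.p6), which run from 250 bases before a transcript start to 50 after it, were available for 35 of the 44 genes. An ISRE core was searched for as GAAANNGAAA on both strands, so that a match on the other strand reads TTTCNNTTTC. It was present in 16 of the 35 genes (45.7%), against 1079 of 27025 genes in the promoter table (3.99%), or 3.44% of all its windows. The stretches below were chosen to show matches beside genes with differences of various sizes, a pair of related genes, and 1 gene that was not called. Each is 60 bases long, ends at or before the transcript start, and has the ISRE core in capitals.
Rsad2: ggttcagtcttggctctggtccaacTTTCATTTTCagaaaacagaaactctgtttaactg
Ifit1: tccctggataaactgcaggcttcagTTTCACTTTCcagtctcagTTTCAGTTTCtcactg
Bst2: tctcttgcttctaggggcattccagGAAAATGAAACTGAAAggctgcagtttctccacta
Oas1a: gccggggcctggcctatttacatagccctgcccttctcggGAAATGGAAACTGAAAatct
Ddx60: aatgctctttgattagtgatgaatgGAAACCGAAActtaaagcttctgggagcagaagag
Ifi205: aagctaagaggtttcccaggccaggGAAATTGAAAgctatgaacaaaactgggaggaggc
Ifi203: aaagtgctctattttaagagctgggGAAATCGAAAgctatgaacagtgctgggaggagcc
Ifitm2: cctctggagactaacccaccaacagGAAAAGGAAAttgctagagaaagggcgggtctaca

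The stretches lie at chr12:26456538-26456597 on the minus strand for Rsad2, chr19:34640760-34640819 on the plus strand for Ifit1 and chr8:71537568-71537627 on the minus strand for Bst2. That of Oas1a is at chr5:120907526-120907585 on the minus strand and that of Ddx60 at chr8:61928009-61928068 on the plus strand. Ifi205 is at chr1:174031855-174031914, Ifi203 at chr1:173942493-173942552 and Ifitm2 at chr7:140955973-140956032, all on the minus strand. The Ifit1 stretch held 2 separate cores, and those of Bst2 and Oas1a held 2 overlapping ones. The windows of Ddx60 and Ifi205 also held 2 cores each, of which the printed stretch shows 1 in full. The Ifi205 and Ifi203 stretches had the same base at 40 of 60 positions. Among the measured genes with a window, the median log2 difference was 2.13 in 15 genes with an ISRE core and 2.39 in 17 without one, and the 2 ranges overlapped (0.22 to 4.83 and 0.56 to 4.92). A match here is a description of the letters and no evidence of binding, and its absence says only that these letters are not in the window. The other motifs searched were TTCNNNGAA, the core of the STAT-binding GAS element, found in 8 of 35 genes (9.55% of genes in the table), and the kappa-B consensus bound by NF-kB, also in 8 (9.55%).

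The antiviral genes were higher with TNF almost throughout. Of 40 measured genes 37 rose and 0 fell, where 3.87% of all genes tested were called higher and 3.33% lower; at an unadjusted p under 0.05, 39 were higher and 0 lower. The median log2 difference was 2.34, against -0.0033 over all genes. It was at least 1 in 36 of the called genes, where 1.83% of all genes tested were both called and that much higher, at least 2 in 26, at least 3 in 14 and at least 4 in Phf11d, Ifi205, Isg20 and Rsad2. In all 40 the lowest TNF array lay above the highest control array, a pattern found in 12.3% of all genes. The 3 that were not called were Ifi27, Epsti1 and Ifitm2. With the replicate number as a block Ifi27 and Epsti1 were also called and 39 of 40 were higher, against 9.73% of all genes.

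**Figure D1:**
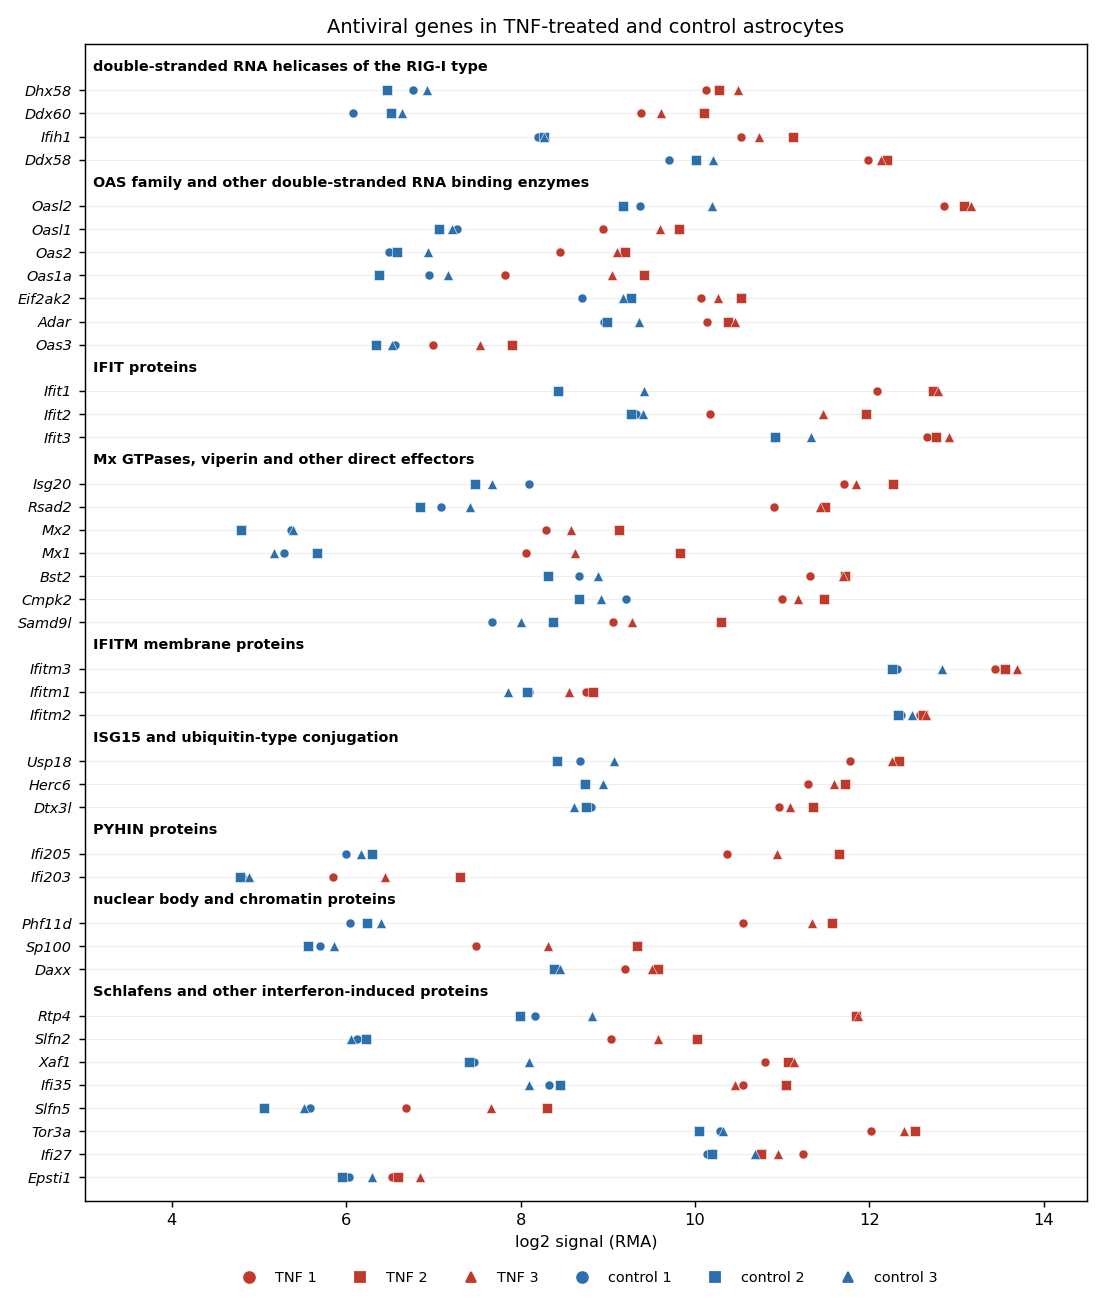
Log2 signal (RMA) of each of the 40 antiviral genes on the 3 TNF arrays (red) and the 3 control arrays (blue), by role; circles, squares and triangles stand for replicates 1, 2 and 3. In every gene the TNF points lie to the right of the control points, narrowly so in Ifitm2, Ifi27 and Epsti1.

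**Figure D2:**
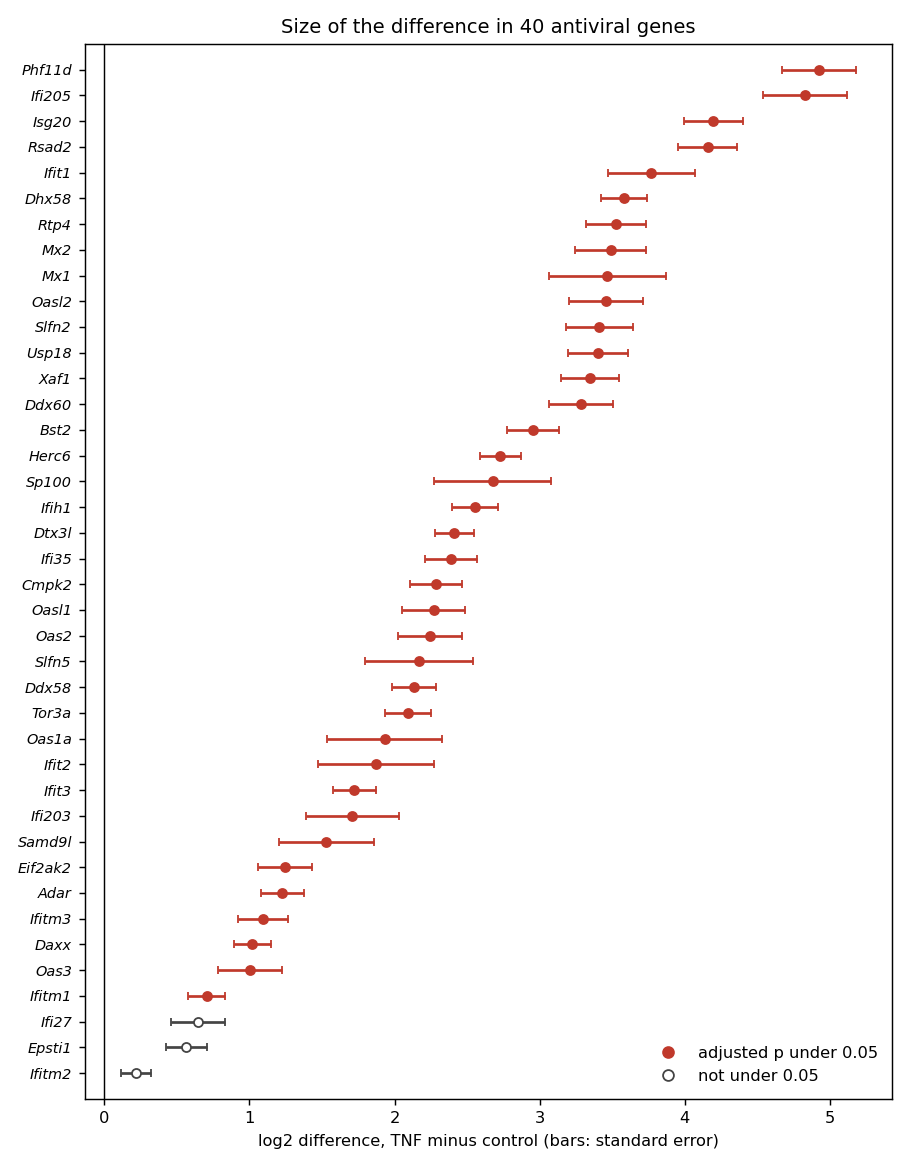
Log2 difference, TNF minus control, of the 40 antiviral genes with its standard error from limma (n = 3 arrays per group); filled points have an adjusted p under 0.05. The differences run from 4.92 in Phf11d to 0.22 in Ifitm2, and the open points are Ifi27, Epsti1 and Ifitm2.

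The helicase Ddx60 was grouped with the RIG-I type helicases Ifih1, Ddx58 and Dhx58, which detect viral double-stranded RNA in the cytoplasm. In this group 4 of 4 genes rose. Dhx58 (LGP2), which lacks the signalling domains of its relatives and modulates them, had log2 signals of 10.12, 10.28 and 10.49 on TNF arrays 1 to 3, against 6.77, 6.47 and 6.92 on control arrays 1 to 3. The groups lay far apart. TNF exceeded control by 3.58 on the log2 scale (SE 0.16, 3 arrays per group, limma adjusted p = 2.89e-05). Ddx60, a helicase with antiviral activity, read 9.38, 10.10 and 9.60 with TNF, against 6.08, 6.51 and 6.64 in controls, a 9.75-fold difference. Ifih1 (MDA5), the sensor of long double-stranded RNA, had 10.53, 11.13 and 10.74 with TNF, against 8.20, 8.27 and 8.27 in controls. The control arrays of Ifih1 were nearly level, and the log2 difference was 2.55 (SE 0.16, adjusted p = 1.23e-04). Ddx58 (RIG-I), which recognises RNA with a triphosphate end, averaged 12.11 ± 0.11 with TNF and 9.98 ± 0.26 in controls (mean ± SD, n = 3 each), or 4.38-fold.

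Enzymes that bind double-stranded RNA rose in 7 of 7 genes, with differences that varied widely. OAS proteins make the oligoadenylates that activate the nuclease RNase L. Oasl2, a family member with ubiquitin-like domains, had 12.86, 13.08 and 13.17 with TNF, against 9.37, 9.17 and 10.20 in controls, a log2 difference of 3.46 (SE 0.26, adjusted p = 2.44e-04). Its relative Oasl1, which in mice limits translation of Irf7, rose 4.82-fold and Oas2 rose 4.74-fold. Oas1a was at 7.82, 9.41 and 9.05 with TNF, against 6.95, 6.37 and 7.17 in controls; TNF array 1 lay well below the other two. Oas3 showed the same order on the TNF arrays and averaged 7.48 ± 0.46 with TNF and 6.48 ± 0.12 in controls (mean ± SD, n = 3 each). The log2 differences were 1.93 (SE 0.40, adjusted p = 0.0269) for Oas1a and 1.00 (SE 0.22, adjusted p = 0.0334) for Oas3. Both calls were lost when any single array other than TNF 1 was left out (highest adjusted p = 0.0856 and 0.108), and with the replicate block their adjusted p was 0.00679 and 0.00898.

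Eif2ak2 (PKR), a kinase that stops translation when it binds double-stranded RNA, averaged 10.29 ± 0.23 with TNF and 9.04 ± 0.30 in controls (mean ± SD, n = 3 each), 2.37-fold higher. Adar, which edits adenosine to inosine in double-stranded RNA and so keeps the cell's own RNA from the sensors, was 2.34-fold higher, with a log2 difference of 1.23 (SE 0.15, limma adjusted p = 0.00303). The difference in these 2 genes was smaller than in any of the helicases. The call of Eif2ak2 was lost without replicate 3 (adjusted p = 0.0708).

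All 3 measured IFIT genes, which encode proteins that bind viral RNA and lie together on chromosome 19, rose. Ifit1, which binds RNA lacking normal cap methylation, had 12.09, 12.73 and 12.78 with TNF, against 8.45, 8.43 and 9.42 in controls. Control array 3 was the highest control, and the groups differed 13.6-fold (log2 3.77, SE 0.30, n = 3 per group, limma adjusted p = 3.49e-04). Ifit3, a partner of the other IFIT proteins, had 12.66, 12.76 and 12.92 with TNF, against 10.93, 10.91 and 11.33 in controls, a 3.30-fold difference. Its near-identical copy Ifit3b rose 8.65-fold on its own probe set; probes of such copies may share signal, which was not tested. Ifit2 was at 10.17, 11.97 and 11.47 with TNF, against 9.33, 9.27 and 9.40 in controls. The wide TNF spread gave Ifit2 a log2 difference of 1.87 with an SE of 0.40 (adjusted p = 0.0305), and the call was lost when any single array other than TNF 1 was left out (highest adjusted p = 0.104); it held with the replicate block (adjusted p = 0.00434).

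Direct effectors rose in 7 of 7 genes and included some of the largest differences. Isg20, an exonuclease that degrades RNA, had 11.71, 12.27 and 11.85 with TNF, against 8.10, 7.47 and 7.67 in controls. This was an 18.3-fold difference (log2 4.20, SE 0.20, n = 3 per group, limma adjusted p = 4.24e-05). Rsad2 (viperin), which makes a nucleotide that stops viral polymerases, read 10.91, 11.49 and 11.43 with TNF, against 7.08, 6.85 and 7.42 in controls, 17.9-fold higher. Its neighbour on chromosome 12, Cmpk2, a nucleotide kinase of mitochondria, rose 4.87-fold. Bst2 (tetherin), which holds budding virus at the cell surface, was at 11.32, 11.72 and 11.70 with TNF, against 8.67, 8.32 and 8.89 in controls, 7.75-fold higher.

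The Mx GTPases, a family known for blocking the replication of viruses, rose on their 2 probe sets. Mx1 had 8.06, 9.82 and 8.63 with TNF, against 5.28, 5.66 and 5.17 in controls (11.1-fold, SE of the log2 difference 0.40, limma adjusted p = 0.00233). Mx2 had 8.30, 9.13 and 8.58 with TNF, against 5.36, 4.79 and 5.38 in controls (11.2-fold, adjusted p = 1.91e-04). TNF array 2 was the highest in both. C57BL/6 mice are known to carry a defective Mx1 allele that gives no working protein, and the arrays measure the transcript only. The call of Mx1 was lost without replicate 3 (adjusted p = 0.0533). Samd9l, which restricts poxviruses, averaged 9.55 ± 0.66 with TNF and 8.02 ± 0.35 in controls (mean ± SD, n = 3 each), a log2 difference of 1.53 (adjusted p = 0.0308); the call was lost without control 1 (0.118) or control 3 (0.0876) and held with the replicate block (2.74e-04).

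IFITM proteins, which sit in membranes and hinder the fusion of entering viruses, had the lowest median log2 difference of the roles, 0.70, and 2 of 3 rose. Ifitm3 had 13.44, 13.56 and 13.70 with TNF, against 12.32, 12.26 and 12.83 in controls, a 2.13-fold difference (log2 1.09, SE 0.17, n = 3 per group, limma adjusted p = 0.00871). Ifitm1 averaged 8.71 ± 0.14 with TNF and 8.01 ± 0.14 in controls (mean ± SD, n = 3 each), 1.63-fold higher; its call was lost without TNF 1, TNF 2 or control 3 (highest adjusted p = 0.0652). Ifitm2 read 12.58, 12.61 and 12.64 with TNF, against 12.37, 12.32 and 12.49 in controls. Its log2 difference of 0.22 (SE 0.10, adjusted p = 0.316) did not pass, and did not with the replicate block (adjusted p = 0.0939). The other 2 probe sets of Ifitm2 differed by 0.24 and 0.23, and the other 1 of Ifitm1 by 0.61. The Ifitm2 stretch printed above holds an ISRE core.

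The ISG15 system attaches the ubiquitin-like protein ISG15 to other proteins, and 3 of 3 measured genes of this role rose. Usp18, which removes ISG15 and also restrains the interferon receptor, had 11.78, 12.34 and 12.26 with TNF, against 8.68, 8.42 and 9.07 in controls, 10.6-fold higher (SE of the log2 difference 0.21, n = 3 per group, limma adjusted p = 1.19e-04). Herc6, the main ISG15 ligase in mice, read 11.29, 11.72 and 11.59 with TNF, against 8.73, 8.74 and 8.95 in controls, 6.63-fold higher. The remaining conjugation enzymes, which are not among the 40, rose too: the conjugating enzyme Ube2l6 8.68-fold (adjusted p = 2.22e-05) and the activating enzyme Uba7 2.90-fold (adjusted p = 1.42e-04). Dtx3l, a ubiquitin ligase that works with Parp9, rose 5.32-fold.

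PYHIN genes encode proteins with a DNA-binding HIN domain, several of which are linked to the sensing of foreign DNA, and 2 of 2 measured ones rose. Ifi205 had 10.37, 11.65 and 10.93 with TNF, against 6.00, 6.30 and 6.17 in controls, 28.4-fold higher (log2 4.83, SE 0.29, n = 3 per group, limma adjusted p = 1.17e-04). Ifi203 had 5.85, 7.31 and 6.44 with TNF, against 4.80, 4.78 and 4.89 in controls, 3.27-fold higher (adjusted p = 0.0186). In both, the control mean lay below the 25th percentile of mean signals over all genes, so the folds of these 2 probe sets are not set against each other. The call of Ifi205 held in all 6 fits without 1 array, and that of Ifi203 was lost without control 1, 2 or 3 (highest adjusted p = 0.0725). The mouse PYHIN genes form a cluster of close copies on chromosome 1, and signal shared between probe sets was not tested.

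Of the nuclear proteins, 3 of 3 rose. Phf11d, a PHD finger protein, had the largest difference of the 40 and the 5th largest among all genes tested: 10.55, 11.57 and 11.34 with TNF, against 6.05, 6.24 and 6.40 in controls (30.4-fold, log2 4.92, SE 0.25, n = 3 per group, limma adjusted p = 5.07e-05). Its relatives Phf11a and Phf11c, each read from its own probe set, were 4.88-fold and 2.44-fold higher. Both passed the threshold, but Phf11a lost it without control 1 (adjusted p = 0.0611) and Phf11c without TNF 1 or any 1 control (highest 0.0836). Sp100, a scaffold of PML nuclear bodies that repress viral genomes, read 7.49, 9.34 and 8.32 with TNF, against 5.70, 5.57 and 5.86 in controls, 6.39-fold higher; its call was lost without replicate 3 (adjusted p = 0.0929). Daxx, a histone chaperone of the same bodies, changed least, at 9.42 ± 0.20 with TNF and 8.40 ± 0.04 in controls (mean ± SD, n = 3 each), 2.03-fold higher.

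Among the Schlafens and other interferon-induced genes 6 of 8 rose. Rtp4, a chaperone of receptors on their way to the membrane, was nearly level across the TNF arrays at 11.86, 11.84 and 11.86, against 8.17, 7.99 and 8.82 in controls, 11.5-fold higher (limma adjusted p = 1.02e-04, n = 3 per group). Slfn2, known in mice for keeping T cells quiescent, had 9.03, 10.02 and 9.58 with TNF, against 6.12, 6.22 and 6.06 in controls, 10.6-fold higher. Xaf1, which antagonises the apoptosis inhibitor XIAP, rose 10.2-fold. Ifi35, a partner of Nmi, rose 5.23-fold and Tor3a, a torsin ATPase, 4.26-fold. Slfn5 read 6.69, 8.30 and 7.67 with TNF, against 5.58, 5.06 and 5.52 in controls (4.50-fold, adjusted p = 0.0131), and its call was lost without replicate 3 (adjusted p = 0.128).

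Ifi27 and Epsti1 completed this role without passing. Ifi27, a small mitochondrial protein, had 11.24, 10.76 and 10.95 with TNF, against 10.14, 10.19 and 10.68 in controls. Its TNF array 1 was the highest, the reverse of the order in most of the 40 genes, and its log2 difference was 0.64 (SE 0.19, limma adjusted p = 0.0926). Epsti1, a gene named for interactions between epithelium and stroma, read 6.52, 6.60 and 6.84 with TNF, against 6.03, 5.95 and 6.29 in controls, a log2 difference of 0.56 (SE 0.14, adjusted p = 0.0539). With the replicate block both passed as higher (adjusted p = 0.0204 for Ifi27 and 0.00253 for Epsti1), and without control 3 Ifi27 passed as well (adjusted p = 0.0461). Epsti1 also passed in limma with quantile normalization (adjusted p = 0.0078) and with array weights (0.0214). It passed too when genes below the 25th percentile of mean signal were left out (0.0433).

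The size of the response differed between numbered pairs of arrays. TNF 2 minus control 2 was the largest of the 3 within-pair differences in 37 of 40 genes, against 54.6% of all genes called higher and 33.7% of all genes. TNF array 1 was the lowest TNF array in 36 of 40 genes, against 51.6% of all genes called higher. The median within-pair log2 difference of the 40 genes was 2.06 in pair 1, 2.83 in pair 2 and 2.37 in pair 3, and every gene was higher with TNF in all 3 pairs. Sp100 spanned 1.79, 3.77 and 2.46 in pairs 1, 2 and 3, and Slfn5 1.11, 3.25 and 2.15. Ddx58, at 2.28, 2.19 and 1.92, and Ifitm1, at 0.65, 0.76 and 0.70, varied less. These are descriptions of 3 pairs, and the labels do not say what a number stands for. For markers of microglia, the brain's macrophages, the mean log2 signal of 19 markers was 7.44, 6.47 and 7.84 on TNF arrays 1 to 3 and 7.06, 6.35 and 7.82 on control arrays 1 to 3, lowest on array 2 of both groups; whether this bears on the antiviral differences was not tested.

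**Figure D3:**
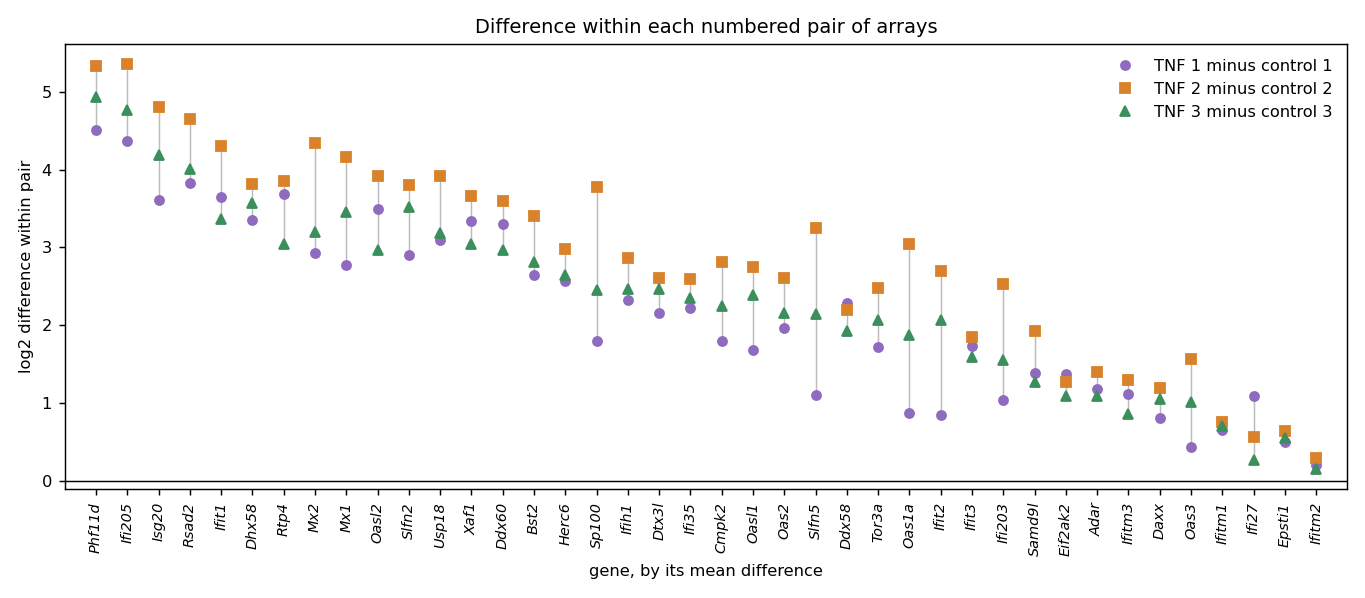
Log2 difference within each numbered pair of arrays (TNF 1 minus control 1, and so on) for the 40 antiviral genes, in order of their mean difference. Pair 2 is the highest point in 37 of 40 genes, and no point lies below 0.

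In bulk RNA a change in the share of cells of a type and a change in RNA per cell cannot be told apart. Of 19 measured microglia markers 0 were called higher or lower. Their median SE was 0.37, against 0.14 over all genes, so a change in them was harder to call. At an unadjusted p under 0.05 with limma 1 of the 19 was higher and 0 lower, where 9.15% of all genes were higher. With the replicate block 3 of the 19 were higher, where 9.73% of all genes were. The median log2 difference of the microglia markers was 0.09. It was above 0 in 15 of the 19, against 9834 of 19926 genes. The medians of the ependymal, oligodendrocyte, endothelial, neuron and fibroblast or mural markers lay between -0.20 and 0.05, and 0 of them were called higher. Lower with TNF were 1 neuron marker, Map2 (log2 difference -1.22, adjusted p = 0.00349), 1 endothelial marker, Kdr (-0.92, 0.0105), and 1 of smooth muscle and mural cells, Acta2 (-0.96, 0.0174), all by limma. With the replicate block, 3 of 6 ependymal, 3 of 10 fibroblast or mural, 1 of 8 endothelial and 2 of 10 neuron markers were lower. In the same fit 1 of 10 neuron markers was higher, where 11.8% of all genes were lower and 9.73% higher. Whether these other cells contributed to the antiviral signals was not tested. Astrocyte markers were not equally bright. Gfap averaged 11.40 ± 0.47 with TNF and 11.91 ± 0.44 in controls, and Slc1a3 12.44 ± 0.24 and 12.72 ± 0.07 in the same order (mean ± SD of log2 signal, n = 3 each). S100b averaged 6.19 with TNF and 6.59 in controls, and the control mean of Gjb6 lay below the 25th percentile of mean signals over all genes. Of 12 astrocyte markers 3 were lower with TNF and 0 higher, where 3.33% of all genes were lower. The 3 were Aldoc (log2 difference -1.009, limma adjusted p = 0.00175), Gja1 (-1.002, 0.0142) and Glul (-0.884, 0.00327). Unadjusted, 4 of the 12 had a p under 0.05 and were lower and 2 were higher, against 9.73% and 9.15% of all genes. In the replicate block fit 6 of the 12 were lower and 2 higher, against 11.8% and 9.73%. The 2 higher in that fit were Aqp4 (log2 difference 0.603, adjusted p = 0.0069) and Slc1a2 (0.602, 0.0123). In 8 of the 40 antiviral genes the control mean lay below 6.16, the 25th percentile of mean signals over all genes, and no detection calls were used. These were Mx1, Mx2, Ifi203, Ifi205, Sp100, Slfn2, Slfn5 and Epsti1, and their folds rest on control signals that may lie near background. The percentile is not a detection limit, and genes just above it, such as Phf11d with a control mean of 6.23, may share this limit.

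Other genes of the interferon pathway were read from lists of 114 genes, of which 98 were measured. Of these 44 rose and 0 fell, against 3.87% called higher among all genes, and the lists differed. Transcripts of the interferons themselves gave no call: of 14 measured ligand genes 0 were higher or lower, where 7.2% of all genes were called. At an unadjusted p under 0.05 with limma 0 of the 14 were higher and 1 lower, against 9.15% and 9.73% of all genes. These counts among 14 genes lie near the shares over all genes. Ifnb1, interferon beta, read 5.06, 5.36 and 5.65 with TNF, against 5.47, 5.25 and 5.40 in controls (log2 difference -0.02, SE 0.16, n = 3 per group, limma adjusted p = 0.985). Ifng, interferon gamma, differed by 0.07 (SE 0.11) and Ifna4 by 0.03 (SE 0.17). In 7 of the 14, Ifnb1 and Ifna4 among them, the control mean lay below the 25th percentile of mean signals, so a change near background may not be visible and a missing call does not show that a ligand stayed level. All arrays were taken at a single time. With the replicate block Ifnz was lower (log2 difference -0.38, adjusted p = 0.0208).

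Receptor and JAK-STAT genes rose in 8 of 14, where 3.87% of all genes were called higher. Stat2, a transcription factor of interferon signalling, had 10.32, 10.71 and 10.81 with TNF, against 8.26, 8.37 and 8.64 in controls, 4.57-fold higher (limma adjusted p = 2.83e-04, n = 3 per group). Irf9, which binds DNA in a complex with STAT2, rose 2.05-fold, the type I receptor chain Ifnar2 by 1.00 on the log2 scale, Il10rb, a chain of the interferon lambda receptor, 2.16-fold, and the interferon gamma receptor chains Ifngr2 and Ifngr1 2.96-fold and 2.09-fold. The other type I chain, Ifnar1, differed by 0.28 (SE 0.12, adjusted p = 0.248; 0.0422 with the replicate block) and Jak1 by 0.13. Jak2, at 0.61, passed with all arrays and lost its call whichever array was left out (adjusted p up to 0.117), and Tyk2, at 0.83, lost its call without replicate 3 (0.0602).

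Downstream of the sensors 9 of 17 genes rose, against 3.87% of all genes. The transcription factors Irf7 and Irf1, which bind ISRE-like elements, rose 25.4-fold and 8.55-fold, while Irf3, which the sensors activate by phosphorylation, read 8.90, 8.80 and 8.42 with TNF, against 8.99, 8.73 and 8.55 in controls (log2 difference -0.05, SE 0.17, limma adjusted p = 0.962, n = 3 per group). Zbp1, a sensor of Z-form nucleic acid, had 9.71, 10.79 and 10.40 with TNF, against 6.72, 6.78 and 6.89 in controls, 11.3-fold higher. The ubiquitin ligases of RIG-I, Rnf135 and Trim25, rose 3.12-fold and 2.82-fold, and the kinase Ikbke 2.80-fold. Mavs, the mitochondrial adaptor of RIG-I and MDA5, differed by -0.11 (SE 0.10), Cgas, a DNA sensor, by 0.21, and Aim2 by 0.07, and these did not pass; the control means of Cgas and Aim2 lay below the 25th percentile of mean signals. The calls of Sting1, Tbk1 and Tlr3 (log2 differences 0.92, 0.58 and 0.95) changed when 1 array was left out: Sting1 lost it without any array but control 2 (highest adjusted p = 0.154), Tbk1 without any but TNF 3 (0.118) and Tlr3 without control 1 (0.0622).

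Further antiviral effectors rose in 16 of 18 measured genes, against 3.87% of all genes. Among them were Parp14, an ADP-ribosyltransferase, 7.89-fold, the exonuclease Trex1 4.12-fold, the cytidine deaminase Apobec3 3.48-fold, Zc3hav1 (ZAP), which targets viral RNA rich in CpG, 3.12-fold, and the nucleotide hydrolase Samhd1 2.51-fold (limma adjusted p from 3.48e-05 for Parp14 to 9.38e-04 for Trex1). Ifi30 and Ch25h did not pass, at log2 differences of 0.59 (adjusted p = 0.0955) and 1.00 (adjusted p = 0.402), and both passed with the replicate block (0.0037 and 0.0144).

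Of 33 measured relatives of the 40 genes, from the same families, 9 rose, where 3.87% of all genes were called higher. The other 24 did not pass, and the median log2 difference of the 33 was 0.17, against -0.0033 over all genes. Within the Schlafens, Slfn8 had 7.80, 9.49 and 9.10 with TNF, against 5.03, 5.60 and 5.50 in controls, 10.7-fold higher (limma adjusted p = 0.00246, n = 3 per group), and Slfn9 was 3.18-fold higher. Slfn1, Slfn3 and Slfn4 differed by 0.18, -0.02 and -0.12, and none of these 3 passed. In 14 of the 33 relatives the control mean lay below the 25th percentile of mean signals; these include Slfn1, Slfn3, Slfn4 and Slfn8 and, of the Oas1 copies, Oas1d, Oas1e, Oas1f and Oas1h, so a missing call there does not show that the gene did not respond. Slfn8 lost its call without replicate 3 (adjusted p = 0.0561), and Slfn9 lost it without TNF 2, control 1 or control 3 (highest 0.0753). Among the Oas1 copies Oas1b, which is truncated in C57BL/6 mice, rose 6.11-fold with 9.47, 9.86 and 9.57 on the TNF arrays, against 6.86, 6.91 and 7.29 on the control arrays. Oas1c, Oas1d, Oas1e, Oas1f and Oas1h did not pass, with log2 differences from -0.02 to 0.33, and Oas1c passed as higher with the replicate block (adjusted p = 0.0435).

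**Figure D4:**
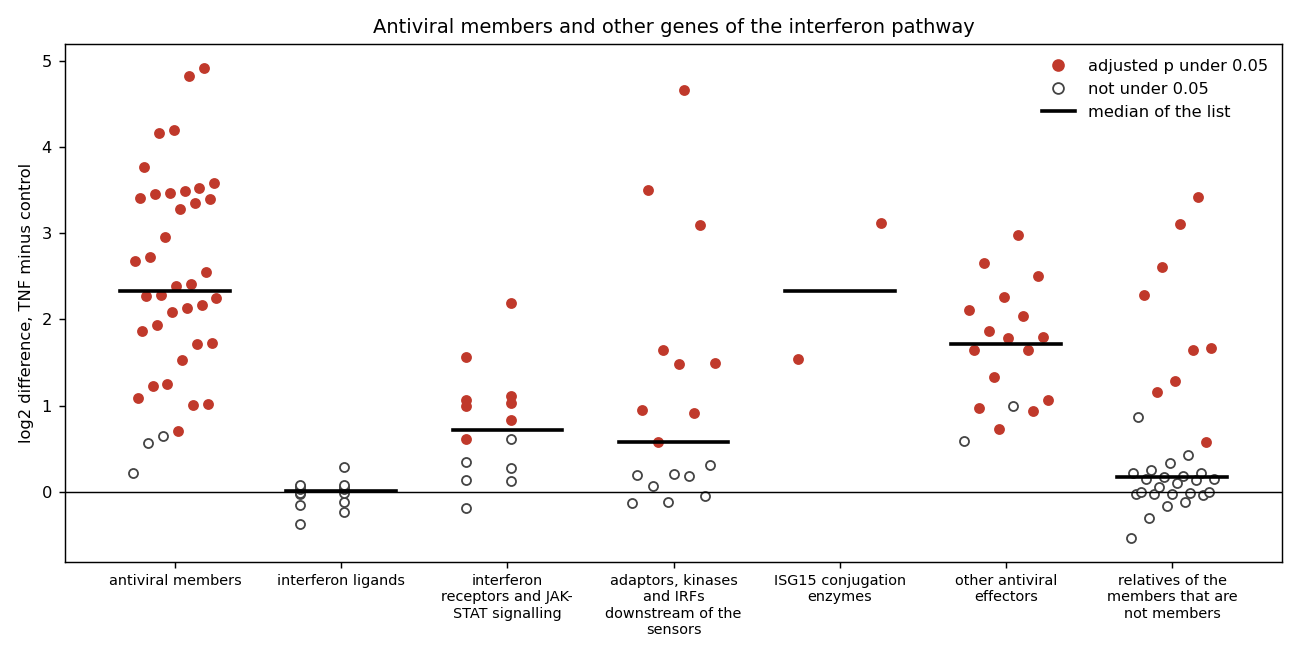
Log2 difference, TNF minus control, of the 40 antiviral genes and of 6 lists of other interferon pathway genes; each point is a gene, filled where its adjusted p is under 0.05, and bars are medians. The 14 interferon ligands lie between -0.38 and 0.28, while the antiviral genes have a median of 2.34 and the other effectors one of 1.71.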

How the data were processed

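RNA of primary mouse astrocytes was measured on Affymetrix Mouse Gene 1.0 ST arrays, 1 array per sample. The values are the authors' deposited log2 signals for 35544 probe sets, with 0 missing; RMA and limma are named per the submitters' processing notes, with versions not given in the sources used here. That the logarithm is to base 2 was inferred from the range, 2.04 to 14.37. Of the probe sets, 21777 had exactly 1 gene symbol in the platform annotation, and the one with the highest mean stood for its gene. TNF and control were compared by limma 3.58.1 (lmFit and eBayes, R 4.3.3), two-sided, with Benjamini-Hochberg adjustment over 19926 genes, after the procedure was tested on simulated data. The simulated noise was independent between arrays, so that test does not cover samples that deviate together. Tables were made in Python 3.11.15 (pandas 2.3.3; numpy 2.4.6) and plots with matplotlib 3.10.9.

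The genes described, their roles and the lists were chosen with earlier results of these data known, so their counts are descriptions set beside those of all genes. Every measured one of the 40 is named; from the other lists, names were taken among genes past the threshold and those nearest to no difference, and not all of these are printed. A few others that did not pass were named after their values were seen. Same-numbered TNF and control samples deviated together (correlations 0.55, 0.65 and 0.75 for numbers 1, 2 and 3), and the pairing rests on this alone. Separate cultures or animals are not stated for the replicates; p-values therefore reflect sample-to-sample spread, possibly technical. Precision is limited by having 3 arrays per group; the median SE was 0.14. Alternatives covered scaling, filters on dim genes, variance models, array weights, the replicate block, probe set choice, arrays left out and thresholds.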

Additional observations from a re-analysis of the deposited data

How the results depend on the processing

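None of the 40 antiviral genes changed sign under any alternative run. The count called higher was 37, 39 with the replicate block, 28 without replicate 3, 30 at an adjusted p under 0.01, and 32 when all 35544 probe sets were tested. Leaving out 1 array gave 32 to 36, and 0 were lower in every fit. Among the interferon pathway lists 44 were higher and 0 lower; the block gave 2 lower (Ifnz and Ifitm7), and leaving out 1 array gave 34 to 41 higher and 0 lower. For all genes the 771 higher and 663 lower became 1938 and 2351 with the replicate block, 401 and 231 without replicate 3, 386 and 195 at an adjusted p under 0.01, and 365 and 200 with differences of at least 1 in size on the log2 scale, and 369 were lower with all probe sets tested. Leaving out 1 array gave 465 to 669 higher and 315 to 455 lower. The cause of these shifts was not tested. Signals near background limit 8 antiviral genes.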
